A study of Mus musculus with 45 samples.

Results

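RNA-seq of the mouse inner cell mass (ICM) at the label E4.5, with and without degradation of the transcription factor GABPA, made up 4 libraries of the 45 samples of the series and of its 18 RNA-seq libraries. They were taken by their labels, as 2 replicates of DMSO and 2 of dTAG13. The study asked what GABPA does in embryos between genome activation and the blastocyst, and RNA-seq was also made at earlier stages and in mouse embryonic stem cells (mESC). All embryos of both groups were homozygous for a dTAG degron fused to the endogenous Gabpa gene (Gabpa-dTAG/dTAG), from a line backcrossed to C57BL/6J for at least 2 generations, and were made by in vitro fertilisation and cultured in KSOM. The DMSO group received solvent and the dTAG13 group 1 µM dTAG13, a small molecule that brings the tagged protein to a ubiquitin ligase, from 84 to 100 h post-fertilisation (hpf), that is for 16 h. The ICM was freed from the trophectoderm (TE) by immunosurgery, in which antibody and complement lyse the outer cells, so each library mixed epiblast (EPI) and primitive endoderm (PrE) cells. No library here held untagged embryos given dTAG13, so an effect of the compound that does not pass through GABPA cannot be told apart from degradation. The study's figure legends call the replicates independent, the labels do not say whether they came from separate embryo collections, and p-values measure the spread between these libraries.

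GABPA is the DNA-binding subunit of GA-binding protein (GABP, also called nuclear respiratory factor 2). It belongs to the ETS family, whose members recognise a GGAA core, and it binds DNA together with a GABPB subunit, which carries the activation domain. In somatic cells GABP is known for promoters of mitochondrial, ribosomal and other housekeeping genes, many of which lack a TATA box and drive 2 genes in opposite directions. At the stage sampled here the ICM separates into the EPI, which gives rise to the embryo proper and keeps the pluripotency network, and the PrE, which forms the yolk sac endoderm.

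Depth was similar, with 18266057 to 20818291 expected counts per library, and transcripts of the mitochondrial genome took 3.88% and 3.78% of the counts after DMSO and 6.02% and 5.96% after dTAG13. Replicates were close, with squared differences of 1.62 and 1.69 times the sampling noise (median over genes) in the DMSO and dTAG13 groups. Levels are given as the authors' FPKM (fragment counts scaled by transcript length and library depth) in the order DMSO replicate 1, DMSO replicate 2, dTAG13 replicate 1, dTAG13 replicate 2, so they can be compared between genes per length. Log2 fold changes, dTAG13 minus DMSO, come with their standard error (SE) from edgeR's quasi-likelihood test on the rounded expected counts, and adjusted p-values are Benjamini-Hochberg over all 15840 genes tested. A gene is called downregulated or upregulated, or said to fall or rise, when its adjusted p was under 0.05, it changed 2-fold or more, and its mean reached 1 FPKM in either group.

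The transcripts of GABP itself were higher after dTAG13. Gabpa was at 11 and 12.0 FPKM after DMSO and at 30.4 and 29.9 after dTAG13, and its counts gave a log2 fold change of 0.95 (SE 0.05, edgeR adjusted p = 7.8e-19), just under the fold threshold. The FPKM ratio was larger, 1.39 on the log2 scale, because RSEM's effective length of the gene went from a mean of 3631 bases to 2803 bases, that is, the estimated mix of its transcripts moved to shorter ones. The degron acts on the protein, so the mRNA neither checks the labels nor measures degradation. Gabpb1, the gene of the main partner subunit, rose from 35.4 and 32.7 to 87.8 and 84 FPKM (log2 fold change 1.33, SE 0.04). Gabpb2, the second partner gene, was at 4.12 and 4.20 against 6.19 and 6.20 FPKM (log2 fold change 0.43, SE 0.08), with no overlap between the groups.

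Across the transcriptome 2091 genes fell (13.2% of those tested) and 1909 rose (12.1%), of which 785 and 679 changed at least 4-fold and 363 and 270 at least 8-fold. At the adjusted p alone, 38.5% of genes were lower and 38.4% higher. The change was broad, as the quartiles of the log2 fold change over all genes lay at -0.66 and 0.67, around a median of 0.01. Downregulated genes were more highly expressed in the DMSO group than upregulated ones, with a median of 8.52 FPKM after DMSO and 2.39 after dTAG13, whereas upregulated genes went from a median of 1.09 to 3.87 FPKM. The call rule sets part of this, since upregulated genes may reach a mean of 1 FPKM in the dTAG13 group alone, and downregulated genes in the DMSO group alone. Of 1619 genes with at least 100 FPKM after DMSO, 206 fell and 30 rose. Neither dTAG13 library exceeded 3 counts in 170 of the downregulated genes, and neither DMSO library did in 140 of the upregulated ones. FPKM values overlapped between the groups in 37 of the 4000 called genes. The call was made on these same libraries and favours genes that separate, so this count is no separate support for it.

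**Figure D1:**
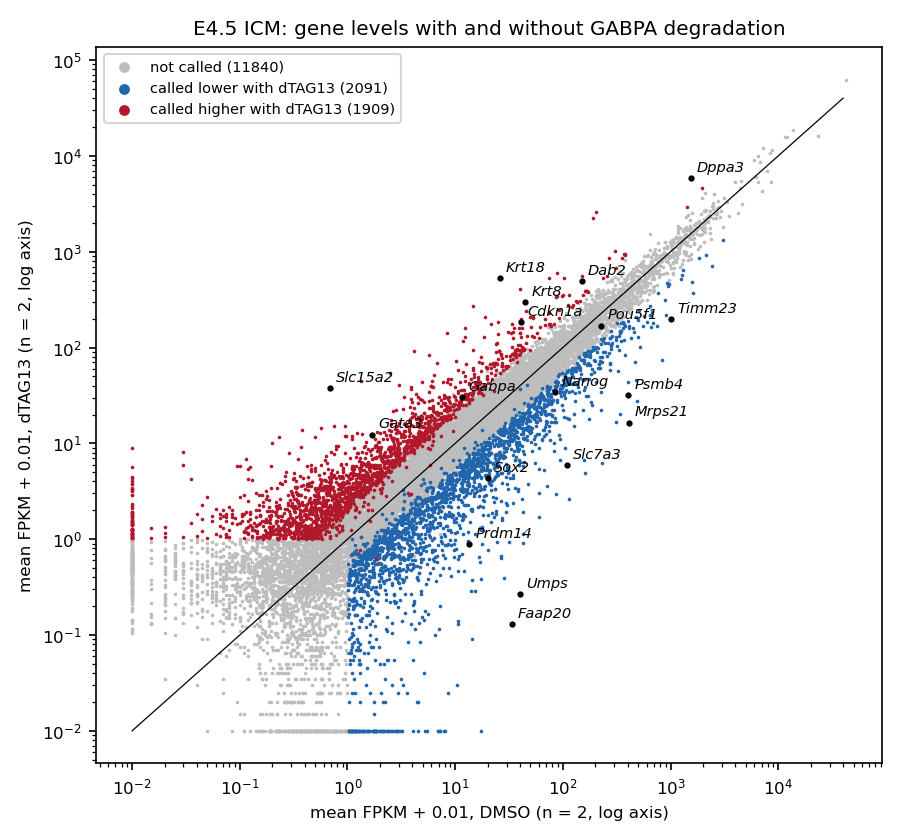
Mean FPKM plus 0.01 of each tested gene after DMSO (x, log axis) and dTAG13 (y, log axis), n = 2 libraries each, with the 2091 downregulated and 1909 upregulated genes in colour and the diagonal as the line of equal level. Downregulated genes reach far into the upper range of expression, while most upregulated genes start at low levels. The call rule sets part of this, since upregulated genes may reach a mean of 1 FPKM in the dTAG13 group alone.

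The 5 genes that fell furthest among those expressed at 30 FPKM or more were Umps, Faap20, Mettl6, Exosc3 and Msc. Umps, the enzyme that makes UMP in the last steps of pyrimidine synthesis, went from 38.8 and 41 to 0.24 and 0.27 FPKM (log2 fold change -7.40, SE 0.10, edgeR adjusted p = 8.5e-38). Faap20, a protein of the Fanconi anaemia core complex, was at 33.5 and 33.6 FPKM after DMSO and 0.12 in both dTAG13 libraries, at least 201-fold lower against a floor of 3 counts per library. Mettl6, a tRNA methyltransferase, fell from 44.4 and 40.6 to 1.14 and 0.65 FPKM, and Exosc3, a subunit of the RNA exosome, from 116 and 111 to 2.03 and 3.15. The fifth, Msc, encodes a basic helix-loop-helix repressor and fell from 31.9 and 30.7 to 1.14 and 0.71 FPKM. In the other direction the peptide transporter gene Slc15a2 rose from 0.76 and 0.59 to 37.9 and 38 FPKM (log2 fold change 5.25, SE 0.14). Gm12625 rose from 4.93 and 3.28 to 90.4 and 93.4 FPKM. Snora30, a small nucleolar RNA, and Gm25636 had DMSO libraries at or under 3 counts, and were at least 5.58-fold and 7.11-fold higher against that floor.

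Promoters were read to see how often the ETS core stands in them. The core searched was CCGGAAG on either strand, in the RefSeq windows (GRCm38.p6) from 250 bases before to 50 after each gene's start, for the 10943 tested genes that had such a window. Of 1496 windows of downregulated genes 32.7% held the core, against 6.45% of 1194 windows of upregulated genes, 17.1% of 8253 windows of genes that were not called, and 8.86% of all 32851 RefSeq windows. At least 2 cores were found in 8.82% of windows of downregulated genes, 0.586% of those of upregulated genes and 2.80% of those not called. Read from the promoter's side, genes with no core in the window fell in 11.2% and rose in 12.5% of cases, those with 1 core in 22.2% and 4.36%, and those with 2 or more in 35.7% and 1.89%. The split was present in each class of GC content. In the GC-poorest of 3 equal classes of windows 27.4% of genes with 1 core and 14.4% without any fell, in the middle class 22.4% and 11.7%, and in the GC-richest 17.9% and 7.29%. The share with a core did not grow with the size of the decrease: it was highest, 35%, between log2 fold changes of -2.0 and -1.5, and 24.2% among genes that fell at least 8-fold. Cores of downregulated genes lay close to the start, with 88.2% of them between 100 bases before and 50 after it, against 74.1% in genes not called and 62.4% in upregulated genes. Occurrence of the letters is a description and does not show binding.

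**Figure D2:**
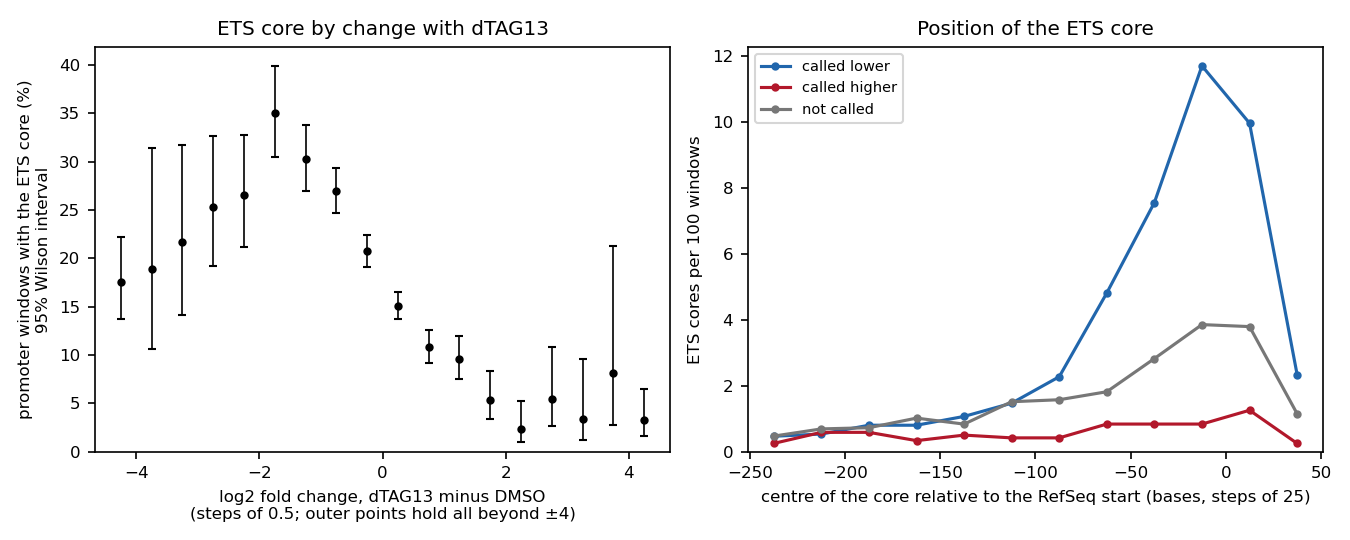
Left, percent of promoter windows with at least 1 ETS core in steps of 0.5 of the log2 fold change (bars, 95% Wilson intervals, which cover counting only). Right, number of cores per 100 windows in steps of 25 bases from the RefSeq start, for downregulated, upregulated and uncalled genes. The share rises from 3.23% among genes more than 16-fold higher to 35% at intermediate decreases, and the excess in downregulated genes stands just around the start.

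The stretches from 150 bases before to 30 after the RefSeq start of 8 downregulated genes show how these cores are placed. They are written 5′ to 3′ on the gene's strand, from RefSeq's GRCm38.p6, in lower case with each core in capitals, as CCGGAAG or, when it lies on the other strand, CTTCCGG. Romo1 (chr2:156144083-156144262, plus strand), Mrpl53 (chr6:83108958-83109137, plus), Timm23 (chr14:32201862-32202041, minus) and Surf2 (chr2:26916258-26916437, plus) hold 2 cores each, Slirp (chr12:87443746-87443925, plus) holds 3, and Tfam (chr10:71238015-71238194, minus), Tufm (chr7:126487205-126487384, plus) and Exosc3 (chr4:45320587-45320766, minus) hold 1.
Romo1: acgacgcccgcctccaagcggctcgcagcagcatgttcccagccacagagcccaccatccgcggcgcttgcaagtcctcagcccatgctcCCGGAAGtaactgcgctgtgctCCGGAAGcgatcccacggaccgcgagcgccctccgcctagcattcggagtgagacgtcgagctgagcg
Mrpl53: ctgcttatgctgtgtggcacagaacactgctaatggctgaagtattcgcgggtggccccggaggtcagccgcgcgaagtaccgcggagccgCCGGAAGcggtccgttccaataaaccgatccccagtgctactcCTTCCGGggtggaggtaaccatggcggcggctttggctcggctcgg
Timm23: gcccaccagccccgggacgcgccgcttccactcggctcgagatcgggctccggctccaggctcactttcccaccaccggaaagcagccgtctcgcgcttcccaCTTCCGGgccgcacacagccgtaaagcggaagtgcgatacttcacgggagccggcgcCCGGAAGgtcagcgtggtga
Surf2: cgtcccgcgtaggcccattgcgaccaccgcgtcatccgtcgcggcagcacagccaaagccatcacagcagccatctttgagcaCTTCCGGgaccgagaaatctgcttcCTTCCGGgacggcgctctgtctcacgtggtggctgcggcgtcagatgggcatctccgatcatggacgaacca
Slirp: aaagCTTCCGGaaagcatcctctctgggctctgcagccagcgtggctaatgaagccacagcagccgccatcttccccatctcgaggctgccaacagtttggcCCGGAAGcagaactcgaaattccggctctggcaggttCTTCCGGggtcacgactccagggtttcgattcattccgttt
Tfam: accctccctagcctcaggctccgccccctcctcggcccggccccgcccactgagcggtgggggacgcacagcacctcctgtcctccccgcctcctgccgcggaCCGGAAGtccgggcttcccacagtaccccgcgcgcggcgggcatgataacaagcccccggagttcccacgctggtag
Tufm: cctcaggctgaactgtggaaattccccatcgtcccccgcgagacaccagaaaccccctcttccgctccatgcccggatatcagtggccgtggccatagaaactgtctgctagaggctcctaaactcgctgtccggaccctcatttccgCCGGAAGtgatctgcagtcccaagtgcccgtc
Exosc3: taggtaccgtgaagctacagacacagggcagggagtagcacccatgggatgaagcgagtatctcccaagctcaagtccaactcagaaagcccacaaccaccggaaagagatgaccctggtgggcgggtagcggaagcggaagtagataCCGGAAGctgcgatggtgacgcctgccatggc

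Cores are centred 57 and 35 bases before the start of Romo1, 56 and 13 before that of Mrpl53, 64 and 39 before that of Surf2, 44 before that of Tfam, and at the start itself in Tufm and Exosc3. By contrast, no core stands in the same stretch of Nanog (chr6:122707339-122707518, plus), Sox2 (chr3:34649845-34650024, plus), Umps (chr16:33967009-33967188, minus) or the upregulated keratin gene Krt18 (chr15:102028066-102028245, plus), which are printed as the contrast to them.
Nanog: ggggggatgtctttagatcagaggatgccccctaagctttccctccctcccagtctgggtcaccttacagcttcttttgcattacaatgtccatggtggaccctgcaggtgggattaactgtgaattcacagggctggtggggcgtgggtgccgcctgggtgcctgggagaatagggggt
Sox2: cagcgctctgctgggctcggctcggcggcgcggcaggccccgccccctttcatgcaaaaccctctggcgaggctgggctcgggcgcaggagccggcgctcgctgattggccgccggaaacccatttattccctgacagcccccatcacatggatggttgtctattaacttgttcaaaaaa
Umps: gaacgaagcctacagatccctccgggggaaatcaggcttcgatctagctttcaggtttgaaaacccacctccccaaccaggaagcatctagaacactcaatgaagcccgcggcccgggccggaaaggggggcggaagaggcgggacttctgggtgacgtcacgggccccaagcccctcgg
Krt18: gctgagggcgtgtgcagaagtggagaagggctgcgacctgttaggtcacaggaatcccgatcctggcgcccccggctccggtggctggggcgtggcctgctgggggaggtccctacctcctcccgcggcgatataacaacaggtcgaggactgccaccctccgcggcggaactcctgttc

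Umps, among the largest decreases in the data, thus has no CCGGAAG in its window, as have most downregulated genes, although its stretch does hold the shorter CGGAAG. The split also ran along gene function. In most lists of the mitochondrion and the ribosome the core was more frequent than the 18.1% over all tested genes. Among downregulated members with a window it was found in 7 of 8 mitochondrial ribosomal protein genes, 7 of 9 of mitochondrial transcription and replication, 5 of 5 mitochondrial translation factors or tRNA synthetases and 18 of 26 ribosome biogenesis factors, but in 2 of 5 genes of iron-sulfur, lipoate and coenzyme Q assembly, 2 of 3 of the respiratory chain and 1 of 2 cytosolic ribosomal protein genes. In the respiratory chain 22.7% of windows held it. A core did not always go with a call, since 24 of 60 windows of cytosolic ribosomal protein genes held one and only 2 of those 60 genes fell. At the adjusted p alone, 48 of all 81 tested genes of that list were lower. In the lineage lists its share varied. None of 18 windows of naive pluripotency transcription factors, none of 8 of PrE regulators and 3 of 27 of TE epithelial genes held it, and of the study's EPI genes 7 of 139 windows did, 1 of them among the 63 downregulated genes. Of PrE matrix and endocytic genes 4 of 22 windows held it (18.2%, 2 of the 3 downregulated genes among them), and of the study's PrE genes 28 of 202, with 3 of the 4 downregulated ones among them. Of ATF4 targets, a stress response list, 5 of 35 windows held it, with 0 of 11 downregulated and 1 of 3 upregulated genes.

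Genes that share a promoter region fell together in several cases. Among 708 head-to-head pairs of protein-coding genes, whose starts lie at most 1000 bases apart or overlap by at most 200, both members fell in 48, 1 fell in 135, and both rose in 6. Members of such pairs fell in 16.3% and rose in 5.82% of cases, against 13% and 11.7% of other protein-coding genes. Romo1 and Nfs1 are one such pair, and the same 2 cores stand in the windows of both, centred 12 bases before and 10 after the Nfs1 start. Romo1, a small inner-membrane protein that sets levels of reactive oxygen, fell from 314 and 315 to 19.3 and 14.1 FPKM (log2 fold change -4.26, SE 0.09). Nfs1, the desulfurase that supplies sulfur for iron-sulfur clusters, fell from 28.9 and 31 to 2.30 and 2.44 FPKM (log2 fold change -4.13, SE 0.12). Surf2, a nucleolar protein of ribosome assembly, fell from 67.9 and 65.1 to 5.43 and 5.10 FPKM, and its neighbour Surf1, a factor of cytochrome c oxidase assembly, from 61.9 and 62.4 to 20.2 and 20.7 (log2 fold changes -3.76 and -1.77). Timm23 and Parg, 51 bases apart, had log2 fold changes of -2.43 and -2.33.

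Nuclear genes of the mitochondrion did not fall as a whole, and a few members of most lists did. Of 83 mitochondrial ribosomal protein genes 9 fell and 1 rose, 10.8% and 1.20%, so the share that fell was not above the 13.2% of all genes, yet 65 of the 83 were lower at the adjusted p alone and the median log2 fold change was -0.45. Mrps21, a small-subunit protein, went from 422 and 395 to 17.5 and 15.3 FPKM (log2 fold change -4.64, SE 0.08), and Mrpl33, of the large subunit, from 533 and 515 to 104 and 97.3 (-2.40, SE 0.05). Most genes of the complex moved far less. Mrpl53 went from 163 and 153 to 5.83 and 7.53 FPKM, but 88.0% of its exonic bases overlap another gene and the kit does not mark strand, so its reads cannot be fully told apart. Mrps18c was at 493 and 490 against 375 and 364 FPKM and Mrpl11 at 135 and 136 against 154 and 160. Mrps6 rose, from 92.8 and 89.4 to 247 and 246 FPKM.

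Several genes that express the mitochondrial genome fell, while its transcripts did not. In mitochondrial transcription and replication 9 of 33 genes fell (27.3%) and none rose (median -0.56). Tfam, which packages mitochondrial DNA and starts its transcription, fell from 64.1 and 70.1 to 26.2 and 31.6 FPKM (log2 fold change -1.06, SE 0.05), close to the fold threshold. Slirp, which stabilises mitochondrial mRNAs, went from 702 and 653 to 239 and 232 FPKM, with 97.8% of its exonic bases overlapped by another gene, and Trmt10c, of mitochondrial RNase P, from 34.5 and 31.4 to 10.6 and 11.5. The promoter-recognition factor Tfb2m (23.1, 19.8, 21.6 and 26.9 FPKM) and the polymerase Polrmt (11.6, 12.2, 12.4 and 10.9 FPKM) overlapped between the groups in FPKM, while on counts they were lower by less than 2-fold, with log2 fold changes of -0.28 (SE 0.07) and -0.58 (SE 0.15). The mean effective length of Polrmt went from 741 to 531 bases. None of the 12 tested transcripts of the mitochondrial genome was called, and 11 were higher at the adjusted p alone, with a median log2 fold change of 0.61. Among them mt-Nd1, a complex I subunit, was at 7354 and 7171 against 12323 and 11877 FPKM (0.68, SE 0.02) and mt-Co1, of cytochrome oxidase, at 4017 and 3894 against 5419 and 5193 (0.36, SE 0.02). The higher mitochondrial share of the dTAG13 libraries given above is the same measurement.

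In translation and import of the organelle, single genes stood out. Tufm, the mitochondrial elongation factor Tu, fell from 79.7 in both DMSO libraries to 19.7 and 19 FPKM (log2 fold change -2.15, SE 0.05), while its partners Tsfm (68.5, 67.1, 82.9 and 83.6 FPKM) and Gfm1 (40.7, 41.8, 42.5 and 39.1 FPKM) were not called. In the list of translation factors and tRNA synthetases 6 of 44 fell (13.6%, about the share of all genes), Rars2 the most among those named (77.5 and 72.7 to 13.5 and 13.6 FPKM). Of 49 import and chaperone genes 10 fell (20.4%) and 1 rose. Timm23, the channel of the inner membrane, dropped from 1013 and 1008 to 195 and 197 FPKM (log2 fold change -2.43, SE 0.03), though 63.5% of its 31-base words also occur in other genes, as do 58.2% of those of Tufm. Tomm20, an outer-membrane receptor, was at 274 and 287 against 249 and 260 FPKM.

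Few structural subunits of the respiratory chain fell, against 13.2% of all genes, and 24.0% of the listed assembly factors did. Of the genes tested, 3 of 81 nuclear subunits of the chain and ATP synthase fell (3.70%, median -0.05), and 12 of 50 assembly factors for cytochrome oxidase and complex I did (24.0%, median -0.38). Ndufa13 of complex I went from 328 and 321 to 56.0 and 57.5 FPKM, and Cox6b1 of cytochrome oxidase from 1557 and 1621 to 480 and 485. At the adjusted p alone 40 of the 81 subunits were lower and 31 higher, and the quartiles lay at -0.41 and 0.14. Atp5b of the ATP synthase was at 2105 and 2060 against 2012 and 1998 FPKM. Log2 fold changes were -0.17 for Atp5b, -0.04 for Uqcrc1, -0.41 for Ndufs1, -0.63 for Sdhb and -0.71 for Cox5b. Among assembly factors the copper carriers Sco1 (8.46 and 9.08 to 1.93 in both) and Cox17 (1321 and 1278 to 648 and 639 FPKM) fell, as did Ndufaf1 (44.9 and 43.2 to 11.2 and 11.3). In the citric acid cycle 3 of 25 enzymes fell (12.0%, not above all genes), with Idh3b at 177 and 187 against 28.2 and 26.4 FPKM and Dlst at 26.7 and 26.2 against 4.66 and 5.03, and 2 of 21 glycolytic genes did (9.52%). For iron-sulfur, lipoate and coenzyme Q assembly 6 of 39 fell (15.4%) and 2 rose, with Nubp1 at 77.1 and 73.7 against 10.5 and 10.9 FPKM and Ciao2a rising from 302 and 303 to 1029 and 1008.

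Among genes that build ribosomes many factors of assembly fell, and few ribosomal proteins. Of 133 ribosome biogenesis factors 34 fell and none rose (25.6% against 13.2% of all genes, median -0.42), with Surf2 as above and Rpf1, a factor of the large subunit, at 95.4 and 91.6 against 11.6 and 10.8 FPKM (log2 fold change -3.16, SE 0.06). Of 81 cytosolic ribosomal protein genes 3 fell (3.70%, median -0.09), among them Rps27 (2387 and 2423 to 728 and 676 FPKM). The nucleolar proteins Fbl (164, 168, 176 and 186 FPKM) and Ncl (524, 527, 692 and 716 FPKM) were not called. In other core machineries the share that fell is read against 13.2% of all genes. It was above it for 6 of 22 cytosolic tRNA synthetases (27.3%, Rars from 179 and 175 to 18.5 and 17 FPKM) and 8 of 45 translation factors (17.8%, Eif3k from 656 and 668 to 161 and 168). It was near or under it for 7 of 48 proteasome subunits (14.6%), 5 of 47 spliceosomal proteins (10.6%, Snu13 from 544 and 553 to 176 and 164), 3 of 31 RNA polymerase subunits (9.68%), and 2 of 29 nuclear pore proteins (6.90%). In the proteasome Psmb4, a subunit of the core ring, fell from 407 and 401 to 31.9 and 31.5 FPKM (log2 fold change -3.66, SE 0.04), and Psmb10, an immunoproteasome subunit, from 26.6 and 26.8 to 0.86 and 0.44. Psma1 of the same ring structure was at 594 and 592 against 605 and 583 FPKM, with overlapping groups.

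**Figure D3:**
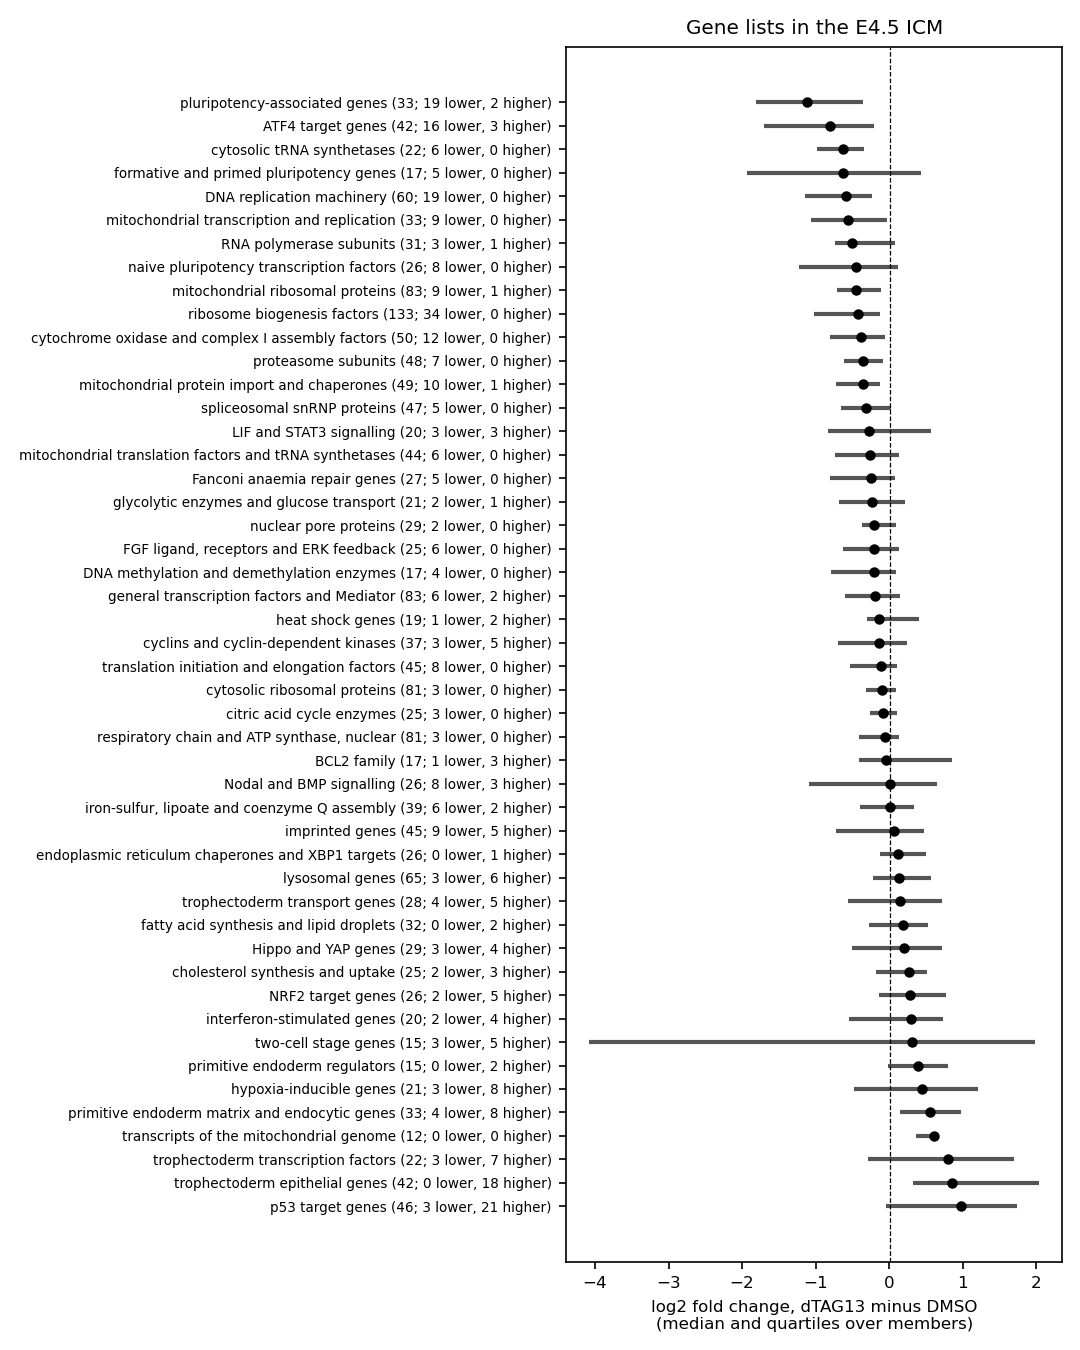
Median (point) and quartiles (line) of the log2 fold change, dTAG13 minus DMSO, over the tested members of each hand-written gene list except the GABP subunits. The number tested, downregulated and upregulated is in brackets and the median of all genes (0.01) is a dashed line. The study's own lists are not drawn. Among the lists drawn, pluripotency-associated genes (-1.12) and ATF4 targets (-0.80) have the lowest medians, and TE epithelial genes (0.85) and p53 targets (0.98) the highest.

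Pluripotency genes were affected unequally. Of 26 naive pluripotency transcription factors 8 fell and none rose (30.8%, median -0.45). Prdm14, a repressor of FGF signalling and of DNA methyltransferases, fell from 13.2 and 13.7 to 0.96 and 0.80 FPKM (log2 fold change -3.99, SE 0.13, edgeR adjusted p = 1.2e-25). Sox2, a partner of OCT4 on DNA, fell from 19.9 and 20.3 to 4.42 and 4.18 FPKM (-2.29, SE 0.09), and Nanog, which sets EPI identity against PrE, from 86.0 and 83.3 to 35.2 and 33.7 (-1.38, SE 0.04). The 4 libraries separated clearly for each of these genes. Pou5f1, which encodes OCT4, was at 223 and 229 against 170 and 169 FPKM, a log2 fold change of -0.46 (SE 0.03) that stayed under the fold threshold. Esrrb (12.5, 12.8, 6.53 and 6.61 FPKM) and Klf4 (43.7, 43.5, 25.7 and 24.9 FPKM) were likewise lower by less than 2-fold, with log2 fold changes of -0.93 and -0.85.

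Of 33 other pluripotency-associated genes 19 fell and 2 rose (57.6% and 6.06%, median -1.12). Slc7a3, a carrier of cationic amino acids, fell from 110 and 107 to 6.15 and 5.74 FPKM (log2 fold change -4.19, SE 0.05). Eras, a Ras-like protein of embryonic stem cells, fell from 25.5 and 28.3 to 2.60 and 2.44 FPKM, and Tdgf1, the Nodal coreceptor Cripto, from 340 and 342 to 154 and 147. The 2 that rose, Dppa3 and Mael, are both known for their role in the germ line. Dppa3, a maternal factor that protects DNA methylation in the zygote, rose from 1539 and 1524 to 5846 and 5780 FPKM (1.87, SE 0.02), with 29.6% of its 31-base words shared with other genes, and Mael from 12.2 and 10.1 to 43.6 in both. Of 17 tested formative and primed genes 5 fell (29.4%, against 13.2% of all genes) and none rose. Otx2 was at 2.00 and 1.35 against 0.81 and 0.56 FPKM and the ETS gene Etv5 at 24.7 and 24.1 against 4.72 and 5.15. Fgf5 and Pou3f1 were at most 0.34 FPKM and were not tested. Of the study's own EPI genes, which it took from other data sets, those it terms late fell in 42 of 69 cases and those it terms early in 46 of 117 (60.9% and 39.3%), with medians of -1.52 and -0.84. Their summed level went from 1650 and 1615 to 666 and 677 FPKM for the late genes and from 24226 and 24191 to 22706 and 22579 for the early ones. At the adjusted p alone 93 of the 117 early genes were lower, while highly expressed genes weigh most in such sums.

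PrE genes were mostly equal or higher after dTAG13. None of 15 PrE regulators fell and 2 rose (13.3%, close to the 12.1% of all genes, median 0.39). Gata6, the first factor of the lineage, was at 42.3 and 43.6 against 89.3 and 88.8 FPKM, a log2 fold change of 0.98 (SE 0.03) just under the threshold, and Gata4 at 38.4 and 39 against 63.9 and 61.5 (0.59, SE 0.04). The later factors Sox17 (111, 116, 105 and 104 FPKM, -0.11) and Sox7 (20.3, 19.9, 15.7 and 15.2 FPKM, -0.44) were slightly lower, while Foxa2 did not pass the test (13.6, 13.2, 13.9 and 15.8 FPKM, edgeR adjusted p = 0.32). The receptor Pdgfra was at 30.4 and 28.3 against 53.5 in both. Cited1, a transcriptional coactivator, rose from 11.7 and 9.41 to 55.8 and 59.96 FPKM.

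Among 33 genes of the PrE matrix and endocytosis 4 fell and 8 rose (12.1% and 24.2%, median 0.55). Dab2, the endocytic adaptor of extraembryonic endoderm, rose from 154 and 146 to 489 and 490 FPKM (log2 fold change 1.68, SE 0.03), and Lrp2, the receptor megalin, from 2.53 and 2.52 to 13.6 and 13.5. The matrix genes Lama1 (157, 162, 266 and 268 FPKM) and Col4a1 (65.7, 62.9, 113 and 115 FPKM) were higher by log2 fold changes of 0.93 and 0.97, under the threshold. Rhox5, a homeobox gene of the X chromosome, fell from 124 and 129 to 14.6 and 15.4 FPKM, and Apom, an apolipoprotein, from 63.5 and 63.7 to 10.4 and 11.3. Of the study's PrE genes 39 of 252 rose and 4 fell (15.5% against 12.1% of all genes that rose, and 1.59% against 13.2% that fell), with a median of 0.48.

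Genes of the TE, the layer that immunosurgery removes, were higher after dTAG13. Of 42 TE epithelial genes 18 rose and none fell (42.9% against 12.1% of all genes, median 0.85), and of 22 tested TE transcription factors 7 rose and 3 fell (31.8% and 13.6%). Krt18 went from 24.9 and 26.8 to 524 and 526 FPKM (log2 fold change 4.29, SE 0.04) and its partner keratin Krt8 from 43.0 and 45.8 to 301 and 293 (2.68, SE 0.03). The claudin gene Cldn4, of tight junctions, rose from 16.9 and 15.3 to 41.1 and 39.2 FPKM. TE transcription factors started lower. Cdx2, which specifies the TE, was at 0.32 and 0.65 against 1.97 and 2.81 FPKM (2.25, SE 0.28), Gata3 at 1.71 and 1.64 against 12.2 and 12.5, Elf5 at 0.02 and 0.19 against 7.68 and 6.17, and Eomes at 2.86 and 2.97 against 7.82 and 8.13. Id2, an inhibitor of helix-loop-helix factors, rose from 14.3 and 15.0 to 94.3 and 96.1 FPKM.

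The remaining TE markers were mixed. Aqp3, a water channel, fell from 25.7 and 26.2 to 12.5 and 12.6 FPKM, Hand1 had at most 2 counts in any library and was not tested, and Tfap2a was higher (0.25, 0.17, 0.94 and 0.91 FPKM, log2 fold change 2.25, SE 0.35) but stayed under the 1 FPKM needed for a call. The 3 TE factor genes that fell were Rhox6 (log2 fold change -3.36), Rhox9, with no counts in either dTAG13 library, and Ascl2 (-1.18), factors of later trophoblast. Of the 28 tested TE transport genes 5 rose and 4 fell (17.9% and 14.3%, against 12.1% and 13.2% of all genes, median 0.15). Fabp3, a fatty acid carrier, rose from 1416 and 1407 to 2974 and 2933 FPKM and the lipase Lpl from 3.05 and 2.28 to 12.3 and 10.7, while the transferrin receptor Tfrc (15.9 and 15.6 to 4.78 and 4.79 FPKM) and the glucose transporter Slc2a1 (13.4 and 13.3 to 5.09 and 5.23) fell. Summed over the markers of each lineage, EPI markers went from 763 and 769 to 403 and 392 FPKM (8 markers), PrE markers from 633 and 631 to 1210 and 1212 (9 markers) and TE markers from 1533 and 1528 to 3887 and 3838 (13 markers). Single genes carry much of these sums: without Fabp3, a fatty acid-binding protein, the other 12 TE markers summed to 116 and 121 after DMSO and 913 and 905 after dTAG13, and without Dab2, an endocytic adaptor, the other 8 PrE markers to 479 and 486 and to 721 and 722 FPKM. In bulk libraries fewer cells of a type and less RNA per cell cannot be told apart. The study chose this stage as one where its embryo counts of EPI cells did not yet differ, but cells were not counted in these libraries, and the part of TE cells left after immunosurgery in these differences was not tested.

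**Figure D4:**
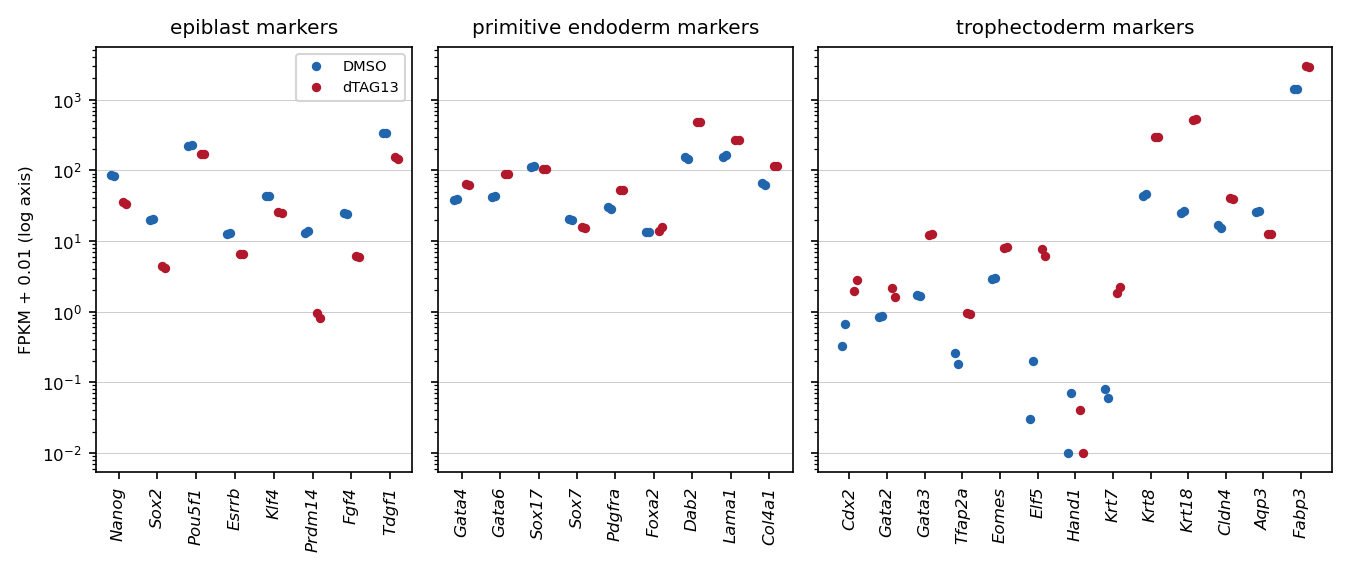
FPKM plus 0.01 (log axis) of the EPI, PrE and TE markers in each of the 4 libraries, DMSO and dTAG13 in different colours, 1 point per library. EPI markers are lower after dTAG13, to different degrees, PrE markers are mostly equal or higher, and 10 of 13 TE markers are upregulated, with Aqp3 lower and Hand1 near 0 throughout.

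Several genes of secreted ligands and their inhibitors fell. Fgf4, the FGF that EPI cells send to PrE precursors, fell from 24.7 and 24.3 to 6.11 and 5.93 FPKM (log2 fold change -2.09, SE 0.07). The receptors Fgfr1 (4.80, 4.97, 6.95 and 5.99 FPKM) and Fgfr2 (33.6, 34.5, 37.4 and 38.2 FPKM) did not pass the test on counts, with edgeR adjusted p = 0.98 and 0.49, nor did the ERK phosphatase gene Dusp6. The ERK inhibitor Spry4 fell from 7.43 and 7.35 to 3.61 and 3.70 FPKM. In the whole list of FGF and ERK feedback genes 6 of 25 fell (24.0%, against 13.2% of all genes) and none rose. Of 26 Nodal and BMP genes 8 fell and 3 rose (30.8% and 11.5%, against 13.2% and 12.1% of all genes). Lefty2, a Nodal inhibitor, fell from 26.9 and 27.5 to 1.64 in both dTAG13 libraries (-4.19, SE 0.10), the ligand Nodal from 13.6 and 12.2 to 5.16 and 6.14 FPKM and Lefty1 from 15.7 in both to 6.88 and 6.65. The ligand Bmp4 fell from 38.6 and 40.1 to 6.46 and 6.90 FPKM and the BMP target Id3 from 272 and 280 to 67.8 and 68.9. The LIF receptor gene Lifr had log2 fold changes of opposite sign on counts (-0.24) and on FPKM (18.9 and 20.8 against 24.3 and 26.6) and its effective length differed between the groups. Socs3, a STAT3 target, rose from 2.14 and 2.20 to 5.94 and 6.45 FPKM, and Socs2 fell from 34.2 and 38.7 to 20.8 and 18.6, with 3 of 20 genes of that list up and 3 down (15.0% each). In the Hippo list 4 of 29 rose and 3 fell, 13.8% and 10.3% and so near the shares of all genes, with the coactivator gene Wwtr1 at 18.2 in both DMSO libraries and 40.0 and 37.6 after dTAG13 (log2 fold change 1.03, or 0.99 and not called without dTAG13 replicate 1), and the kinase gene Stk4 at 17.7 and 23.2 against 4.13 and 5.48.

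Among stress programmes, p53 targets rose more often than they fell, and ATF4 targets the reverse. Of 46 p53 target genes 21 rose and 3 fell (45.7% and 6.52%, median 0.98). Cdkn1a, the cell cycle inhibitor p21, rose from 40.2 and 41.7 to 182 and 185 FPKM (log2 fold change 2.14, SE 0.04), Mdm2, the ligase that limits p53, from 44.4 and 45.6 to 110 and 112 (1.17, SE 0.03), and the pro-death gene Bbc3 from 2.56 and 1.80 to 6.01 and 5.58. Perp, a desmosomal protein that epithelia also use, rose from 4.33 and 4.34 to 33.8 and 31.4 FPKM. Of 42 ATF4 targets, the genes of the amino acid response, 16 fell and 3 rose (38.1% and 7.14%, median -0.80). Asns, asparagine synthetase, fell from 610 and 603 to 188 and 185 FPKM (-1.77, SE 0.02), Trib3 from 37.1 and 38.6 to 8.16 and 10.1, and Chac1, which degrades glutathione, from 17.4 and 17.8 to 1.20 and 1.48. Within the same list Cebpb (1.3 and 0.86 to 10.9 and 12.7 FPKM) and Ddit3 (42.5 and 43.9 to 93.6 and 95.1 FPKM) rose.

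Lists of other responses moved less uniformly, and their shares are read against the 12.1% of all genes that rose and the 13.2% that fell. Among hypoxia-inducible genes 8 of 21 rose and 3 fell (38.1% and 14.3%), with the mitophagy gene Bnip3 at 32.3 and 35 against 102 and 98.8 FPKM and the demethylase gene Kdm3a at 32.1 and 28.9 against 8.97 in both. Of 26 NRF2 targets 5 rose and 2 fell (19.2% and 7.69%), with Nqo1 up (6.18 and 5.30 to 16.4 and 17.2 FPKM) and Gstp1 down (487 and 495 to 27.8 and 27.3 FPKM, log2 fold change -4.21). The chaperone gene Hspa5 was at 830 and 823 against 794 and 798 FPKM, and the small heat shock gene Hspb1 at 1021 and 1042 against 1033 and 1035, with overlapping groups. In the BCL2 family 1 of 17 fell (Bid) and 3 rose (5.88% and 17.6%). Among lysosomal genes 6 of 65 rose and 3 fell (9.23% and 4.62%, under the shares of all genes), with Lamp1 at 230 and 239 against 536 and 516 FPKM.

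Some genes of DNA replication fell and none rose. Of 60 such genes 19 fell (31.7%, against 13.2% of all genes, median -0.58). Among them were Mcm2 of the replicative helicase (99.3 and 101 to 45.2 and 46.7 FPKM), Tyms, thymidylate synthase (374 and 383 to 80.8 and 84.6), and Rnaseh2b (94.6 and 94.7 to 6.76 and 6.63, log2 fold change -3.73). The clamp gene Pcna was at 297 in both DMSO libraries and 232 and 226 FPKM after dTAG13. Cyclins and their partners went both ways, with 3 of 37 down and 5 up (8.11% and 13.5%, against 13.2% and 12.1% of all genes). E2f4, a transcription factor of quiescence, fell from 69.8 and 72.2 to 2.95 and 4.24 FPKM (-4.32, SE 0.08), and Ccnd1, cyclin D1, from 8.08 and 8.56 to 1.55 and 1.99. The cyclin genes Ccne1 (52.1, 50.1, 66.7 and 66.2 FPKM) and Ccnb1 (365, 371, 335 and 332 FPKM) were not called. Of 27 Fanconi anaemia genes 5 fell (18.5%, against 13.2% of all genes), including Faap20 and Mad2l2 (64.8 and 68.8 to 13.2 and 14.6 FPKM).

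Some genes of DNA methylation and demethylation fell. Of 17 tested enzymes of this list 4 fell (23.5%, against 13.2% of all genes) and none rose. Dnmt1, the maintenance methyltransferase, fell from 18.6 and 18.9 to 8.09 and 7.32 FPKM (log2 fold change -1.34, SE 0.07), and its recruiting factor Uhrf1 from 44.6 and 43.3 to 19.3 and 20.3. Tet1, which oxidises methylcytosine, fell from 46.4 and 47.0 to 20.4 and 21.7 FPKM. Zfp57, which guards imprints, fell from 72.3 and 67.3 to 17.3 and 14.7 FPKM, and Dnmt3l overlapped between the groups (162, 158, 161 and 163 FPKM). Of 45 tested imprinted genes 9 fell and 5 rose (20.0% and 11.1%, against 13.2% and 12.1% of all genes). Grb10 was at 12.0 and 12.7 against 1.46 and 2.04 FPKM, Meg3 at 23.1 and 28.2 against 7.90 and 8.47, and the upregulated H19 at 4.87 and 4.06 against 11.9 and 11.7.

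How far the changes were those of mESC was read from a panel of 16 genes in the 4 libraries of Gabpa-dTAG/dTAG mESC cultured in 2i medium (2iES cells), given 0.5 µM dTAG13 or DMSO for 24 h. Dose and duration differed from those of the embryos (1 µM, 16 h) and cannot be told apart from the cell type. The 2 DMSO libraries of mESC also differed from each other in the mitochondrial share of counts (0.371% and 2.17%). In edgeR's interaction test 41.9% of 17657 genes differed in their response at an adjusted p under 0.05, and of the panel 10 did. The mitochondrial genes Tfam, Tufm and Mrpl33 fell in both. Tfam had log2 fold changes of -1.06 in the ICM and -1.13 in mESC (difference 0.05, SE 0.10, edgeR adjusted p = 0.76) and Tufm of -2.15 and -2.60 (difference 0.44, SE 0.19, edgeR adjusted p = 0.095), whereas Mrpl33 fell less in the ICM (-2.40 against -3.28, difference 0.87, SE 0.17).

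Pluripotency factors split between the cell types. Sox2 fell in the ICM and in mESC was at 14.4 and 21.1 FPKM after DMSO and 23.8 and 23.9 after dTAG13 (log2 fold changes -2.29 and 0.39, difference -2.70, SE 0.24). Pou5f1 was the reverse, since in mESC it fell from 163 and 125 to 45.7 and 41.9 FPKM (log2 fold change -1.75 against -0.46, difference 1.27, SE 0.16). Nanog fell in both (-1.38 and -1.12, difference -0.28, SE 0.14, edgeR adjusted p = 0.13). Krt18 and Krt8, which rose in the ICM, had log2 fold changes of 0.18 and 0.11 in mESC, although Krt18 was already at 116 and 94.1 FPKM in mESC after DMSO. Mdm2 rose more in mESC, from 52.2 and 39 to 677 and 668 FPKM (3.62 against 1.17, difference -2.47, SE 0.15), while Cdkn1a did not pass the test of a difference (2.14 and 1.87, edgeR adjusted p = 0.054).

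**Figure D5:**
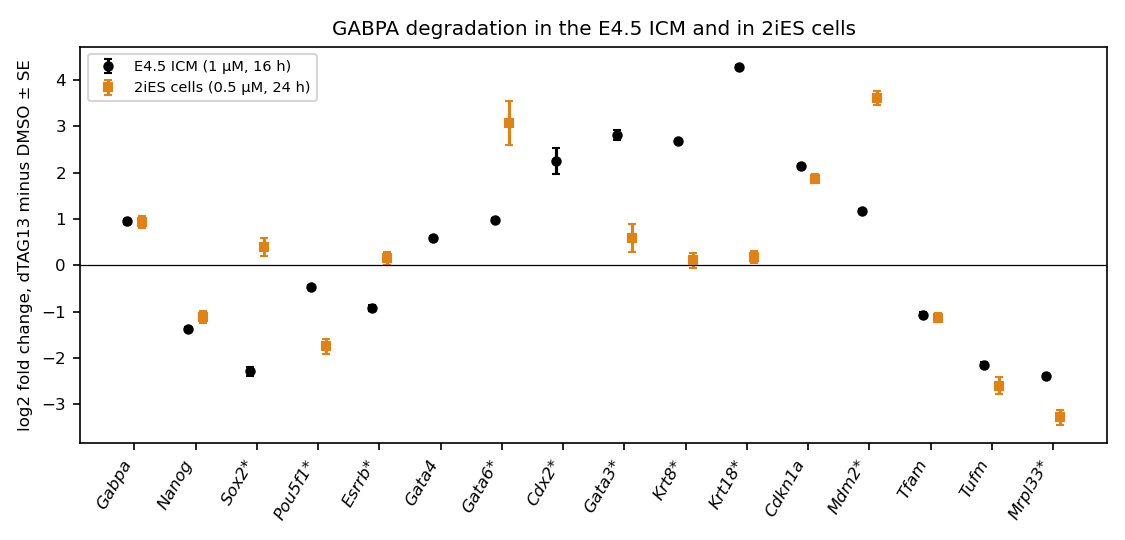
Log2 fold change, dTAG13 minus DMSO, with its standard error, of the 16 panel genes in the E4.5 ICM (circles) and in 2iES cells (squares), n = 2 libraries per group. Gata4 and Cdx2 had too few counts to be tested in 2iES cells alone and have no square. Tfam and Tufm lie close together in both, Sox2, Krt8 and Krt18 differ by 2.55 to 4.09 in size, and Mdm2 lies higher in 2iES cells.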

How the data were processed

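The 4 RNA-seq libraries (E4.5 ICM, 2 DMSO and 2 dTAG13) were made with SMART-Seq v4 and Nextera XT, which do not mark strand, and read as paired 75-base ends. Per the study's methods, the authors trimmed reads with Trimmomatic, mapped them to GRCm38 with STAR and quantified 55385 genes with RSEM. The deposited tables hold expected counts (estimated, before normalization) and FPKM values, which the authors scaled by effective length and library. The TPM column that the authors also deposited was not used in the text. RSEM shares reads between similar genes, so values of genes with near copies are uncertain, and mean effective lengths differed by more than 1.5 times between the groups in 859 of 15840 tested genes.

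Expected counts were rounded. Genes reaching 10 counts in 2 or more libraries were scaled by TMM and tested with edgeR 4.0.16 (quasi-likelihood, Benjamini-Hochberg over all genes) in R 4.3.3, without a block, and called where the adjusted p was under 0.05, the change 2-fold or more and the mean 1 FPKM or more in either group. These thresholds follow the study, which used DESeq2. It does not say over which libraries the mean FPKM was taken, so the either-group reading was chosen here. The comparison with mESC used an interaction of cell type and treatment over 8 libraries. The fits were checked on simulated counts. Counts of 3 per library served as the floor for bounds.

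Of 49 gene lists written by hand, the text names the defining members and the 2 called members that rose and fell most among those at 10 FPKM or more, plus, at 30 FPKM or more, the top 5 of all genes each way. The TE factor genes that fell, and some of the head-to-head pairs, were named after their values were seen. One gene that this rule names is not reported here. The members and lists were chosen with earlier results of these data known. The study's EPI and PrE lists came from its supplementary tables. RefSeq promoter windows (GRCm38.p6) matched 10943 of the tested genes by symbol, chromosome and strand, or else by Ensembl identifier. Where a gene had several windows, the one nearest its annotated 5′ end was kept. No per-sample columns were left out. Alternatives, given at the end, covered scaling, filters, thresholds, DESeq2 1.42.0, a block by replicate number, each library left out, and other spellings of the ETS core. Samples of the series other than these RNA-seq libraries were not analysed here.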

Additional observations from a re-analysis of the deposited data

Results flagged for a closer look

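Of the 16 panel genes, 10 had responses that differed between the E4.5 ICM and 2iES cells by the test of the difference itself (edgeR interaction, adjusted over 17657 genes). The differences, ICM log2 fold change minus that of 2iES cells, were -2.70 for Sox2, 1.27 for Pou5f1, -1.09 for Esrrb, -2.12 for Gata6, 3.06 for Cdx2, 2.21 for Gata3, 2.55 for Krt8, 4.09 for Krt18, -2.47 for Mdm2 and 0.87 for Mrpl33. In 2iES cells Gata6 and Cdx2 stayed under 0.6 FPKM in all 4 libraries, so their differences rest on few counts there, and that of Cdx2 (edgeR adjusted p = 0.017) no longer passed the test without dTAG13 replicate 2 (0.055). Dose, duration and culture differ between the 2 cell types together and cannot be told apart. With 2 libraries per group, no sample could be tested as standing apart from its group.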

How the results depend on the processing

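All 11 refits of the ICM comparison kept the number of calls within 1.5 times the reported 2091 lower and 1909 higher. RLE scaling gave 2108 and 1887, library totals alone 1933 and 2073, no count filter 2167 and 2005, a minimum of 50 counts 1636 and 1436, and DESeq2 2008 and 1759. Upper-quartile scaling gave 1836 and 2170 and moved the all-gene median log2 fold change from 0.01 to 0.11, so the balance of lower and higher calls rests on the scaling. Leaving out 1 library in turn gave 2050 to 2080 lower and 1886 to 1934 higher, where the lone library of a group is taken to vary like the other group. Only 1 gene changed to the opposite call without DMSO replicate 1 (Gm10486) and 1 without DMSO replicate 2 (Pagr1a), both named after their values were seen. With the replicate number as a block, 2070 fell and 1896 rose. The numbers do not pair these libraries, since deviations of same-numbered libraries correlated at -0.04 over 11124 genes and only 2 pairs exist. Without the fold threshold 5355 were lower and 5100 higher. Dropping the FPKM threshold gave 2767 and 2780, averaging FPKM over all 4 libraries 1829 and 1528, testing against a 1.5-fold change 2749 and 2446, and fitting all 18 libraries together 1744 and 1591.

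In 671 refits of 61 list medians the largest move was 0.66 on the log2 scale, and no median changed sign with both values beyond 0.1. Of 2604 refits of 237 tested named genes 2586 kept their call, 9 lost it and 9 gained it, and none changed direction past the threshold. Upper-quartile scaling took Tfam (log2 fold change -0.96), Cox17, Aqp3, Spry4 and Socs2 under the 2-fold threshold and Gabpa (1.05), Gata6, Lama1 and Col4a1 over it, and library totals did the same to Tfam, Gabpa, Gata6 and Col4a1. A minimum of 50 counts took Gata6 and Col4a1 over it. Gata2 (0.85) and Wwtr1 (0.99) were lost without dTAG13 replicate 1, and Gclm (0.99) without DMSO replicate 1.

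The difference from mESC passed the test in 5324 to 5421 genes with 1 library left out, against 7392, in 6242 with DESeq2, 7404 with library totals and 6229 with the replicate block, and in 9 to 11 panel genes. The share of windows with the core depends on its spelling. CGGAAG was found in 46.0% of windows of downregulated genes, 15.2% of those of upregulated and 31% of all tested genes, and CCGGAAGTG in 8.42%, 1.09% and 4.33%. Depth limits what can be said of genes at or under 3 counts in a group, and 2 libraries per group limit all estimates of spread.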

Other observations

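Several classes of RNA that are short or lack a poly(A) tail were higher after dTAG13. Of 37 tested small nuclear, small nucleolar, Cajal body and miscellaneous RNAs 32 rose and 1 fell, with a median log2 fold change of 2.06, and their share of all counts went from 0.00795% and 0.00896% to 0.0610% and 0.0645%. Rn7sk, the 7SK RNA that holds the elongation factor P-TEFb inactive (chromosome 9, 78175303 to 78175633, minus strand), rose from 194 and 215 to 2591 and 2625 FPKM (log2 fold change 3.65, SE 0.04). Clustered histone genes, whose replication-dependent mRNAs end in a stem-loop, rose in 28 of 60 cases and fell in 1, with a median of 1.06. Of the 60 genes of the replication machinery 19 fell and none rose. The libraries were primed on poly(A), and the part of library preparation or RNA quality in these values was not tested.

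Other classes of gene models went different ways, against 12.1% of all genes that rose and 13.2% that fell. Of 506 genes of the annotation class TEC, unproven loci 91 rose and 17 fell (18% and 3.36%), whereas of 626 processed pseudogenes 64 rose and 100 fell (10.2% and 16%). Transcripts typical of the 2-cell stage were mixed, with 5 of 15 tested up and 3 down, and Zscan4c and Zscan4d had no reads in any library.

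Effective length changed at some genes without a matching change in counts. At Atp13a3, a polyamine transporter, the mean effective length went from 6117 to 3111 bases, with log2 ratios of 1.64 on FPKM and 0.60 on counts. At Cd200, an immune regulator, it went from 241 to 468 bases, with -0.38 on FPKM and 0.51 on counts. An FPKM ratio of at least 2 without a call, although past the adjusted p, was seen for 58 lower and 282 higher genes, while 5 upregulated genes were not higher in FPKM.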
